A study of Mus musculus with 12 samples.

Results

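The comparison is of RNA between Arf-/--shSCR MEFs and WT-shSCR MEFs, mouse embryonic fibroblasts that lack or carry the tumour suppressor ARF. Its members are the RNAseq libraries that the labels assign to these 2 groups, 2 replicates of each, which makes 4 of the 12 libraries of the series. The other libraries are RNAseq of MEFs labelled WT-shARF, which carry a hairpin against Arf, and ribosome footprints of all 3 groups. The WT MEFs are C57BL/6J by the labels and B6129SF2/J by the study's methods, and the Arf-/- MEFs are B6.129X1-Cdkn2atm1Cjs/KaiJ, so genotype and strain cannot be told apart. In the Arf-/- allele a neomycin cassette replaces exon 1β of Cdkn2a, the first exon of Arf alone, and the exons of Ink4a are kept. Cells of both groups were at passage 4, had been transduced with a lentivirus that carries the scrambled hairpin shSCR, and were selected with puromycin. MEFs are not 1 cell type but what grows out of dissociated embryos. Nothing in the labels or methods says that the replicates are separate cultures, so p-values measure only the spread between these samples, which may be technical.

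ARF is made from the alternative reading frame of Cdkn2a and accumulates in fibroblasts as they are passaged. It sits in the nucleolus, bound to nucleophosmin, and holds off MDM2, the ubiquitin ligase that destroys p53. p53 in turn switches on Cdkn1a, whose product p21 blocks cyclin-dependent kinases, so that RB family proteins keep E2F-driven replication genes and late cell cycle genes silent.

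Counts on coding sequences summed to between 1578627 and 2803035 in the 4 libraries. Levels are given as CPM, counts scaled to library size by TMM, and changes as the log2 fold change of Arf-/--shSCR over WT-shSCR with its standard error (SE). A gene was called when its Benjamini-Hochberg adjusted p from edgeR's quasi-likelihood F test was under 0.05, with the adjustment made over all 10659 genes tested. With 2 replicates against 2, an exact permutation test of 1 gene cannot give a p below 0.33, and the calls use a spread that edgeR estimated from all genes together. In bulk RNA, fewer cells of a type and less RNA per cell cannot be told apart.

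After loss of Arf, genes of mitosis, histone synthesis, DNA replication and the nucleolus were called higher, and p53 targets, lysosomal genes, ferritins, macrophage genes and many secreted matrix proteins were called lower. Over all genes, 420 were higher (3.94% of those tested) and 425 were lower (3.99%), together 7.93%. The median log2 fold change of all genes tested was -0.004, and the called genes had a median size of 1.05 among the higher and 1.08 among the lower. A change of more than 2-fold was found for 223 of the higher and 246 of the lower genes, and of more than 4-fold for 29 and 91. Both knockout libraries lay above both WT-shSCR libraries, or both below, in 415 of the 420 higher and all 425 lower genes, and in 51.7% of all genes tested. For a called gene, that the groups did not overlap is therefore no support beyond the call. The calls leaned on both control libraries: without WT-shSCR replicate 1 there were 105 higher and 117 lower, and without WT-shSCR replicate 2 there were 112 and 124. Of the genes called with all 4 libraries, 1 changed sign in any of these fits, when Arf-/--shSCR replicate 1 was left out.

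**Figure D1:**
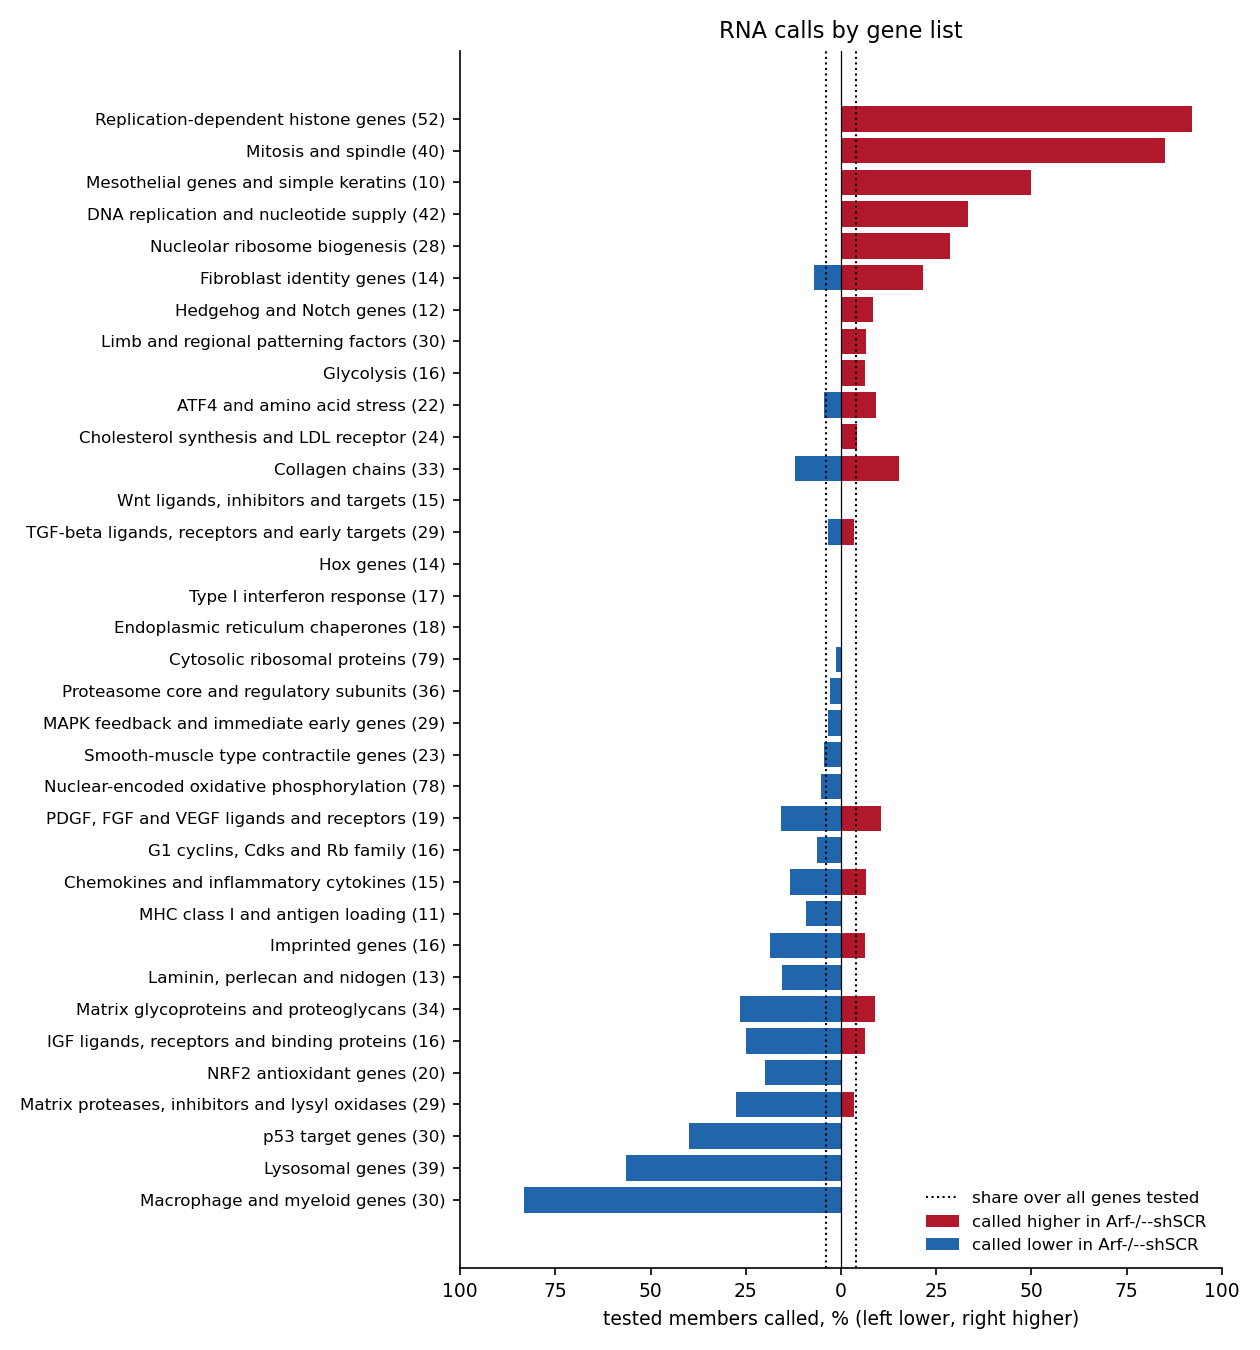
Share of tested members called higher (right, red) or lower (left, blue) in Arf-/--shSCR RNA, in percent, for 35 gene lists with at least 10 members tested, whose number stands in brackets. The SMC, HMG, hnRNP, SR and nuclear transport lists, added after values were seen, are not shown. Dotted lines mark the shares over all genes tested, 3.94% higher and 3.99% lower. Histone and mitosis genes stand at the top and macrophage, lysosomal and p53 target genes at the bottom.

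Cdkn2a itself was read in both groups, and its counts also hold Ink4a and the exons shared by both products. The gene occupies chromosome 4, 89274471 to 89294653, minus strand (GRCm38). It had 44.1 and 41.2 CPM in the WT-shSCR libraries and 27.2 and 31.7 CPM in the Arf-/--shSCR libraries (log2 fold change -0.54, SE 0.25, adjusted p = 0.197). Both knockout values lay below both controls, but the change did not pass the threshold. Its ribosome footprints, which are mRNA fragments shielded by a ribosome, were called lower, with a log2 fold change of -1.1. Cdkn2b, the neighbouring gene for the inhibitor p15, had 23 and 24.1 against 7.87 and 14.8 CPM (log2 fold change -1.07, SE 0.37, adjusted p = 0.0872).

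The transcriptional targets of p53 included many genes that were lower and none that was higher. Of 31 listed genes 30 were tested, and 12 were called lower (40%) and 0 higher, against 3.99% lower over all genes. Their median log2 fold change was -0.64, and 28 had a value below 0. Cdkn1a, which encodes p21, had 118 and 134 CPM in WT-shSCR and 24 and 31.7 CPM in Arf-/--shSCR MEFs (log2 fold change -2.18, SE 0.22, adjusted p = 3.78e-06), the largest fall of the list. Ptprv, a receptor-type phosphatase induced by p53, had 652 and 619 against 179 and 230.2 CPM (log2 fold change -1.64, SE 0.16, adjusted p = 2.43e-06). Mdm2, both the inhibitor of p53 and its target, had 108 and 109 against 42.6 and 54.5 CPM (log2 fold change -1.16, SE 0.2, adjusted p = 0.00111). In these 3 genes the groups did not overlap, and the calls held under every alternative run. Ak1, an adenylate kinase, went from 179 and 144 to 56.5 and 65.1 CPM (log2 fold change -1.42, SE 0.19, adjusted p = 7.91e-05), and Ccng1, which encodes cyclin G1, from 239.9 and 258 to 126 and 139 CPM (log2 fold change -0.91, SE 0.16, adjusted p = 8.91e-04). The other members called lower were Psrc1 (-1.35), the death receptor gene Tnfrsf10b (-1.26), the translesion polymerase gene Polk (-1.14), the stress regulator Sesn2 (-1.1), the heparan sulphatase gene Sulf2 (-1.04), the antiproliferative gene Btg2 (-1.01) and the kinase gene Plk2 (-0.54), as log2 fold changes.

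The apoptosis genes Bax and Pmaip1 were not called in RNA. Bax had 246 and 229.6 against 158 and 185 CPM (log2 fold change -0.47, SE 0.16, adjusted p = 0.0688), and Pmaip1, which encodes NOXA, had 9.27 and 20.3 against 3.58 and 5.91 CPM (log2 fold change -1.59, SE 0.52, adjusted p = 0.0671). Bbc3, which encodes PUMA, was too low to be tested. In footprints, where 9.57% of 10737 genes tested were called higher and 8.95% lower, 18 of 30 p53 targets were called lower and 0 higher, with a median of -0.81. Without WT-shSCR replicate 1 the RNA calls of this list were 7, and without WT-shSCR replicate 2 they were 4, while its median was -0.79 and -0.83.

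Among cell cycle inhibitors and among G1 regulators 1 gene each was called. Over all genes, 3.94% were called higher and 3.99% lower. Of 7 Cdk inhibitor genes, Cdkn1a was the 1 called (14.29% lower), and 3 had an unadjusted p under 0.05, all lower. In footprints 3 of the 7 were called lower, with a median of -1.1, against 8.95% lower over all genes. Among 16 tested G1 cyclins, Cdks, E2F and RB family members, 1 was called: Ccnd2, which encodes cyclin D2, had 233 and 263 CPM in the controls and 125 and 119.5 CPM in the knockout libraries (log2 fold change -1.02, SE 0.16, adjusted p = 3.13e-04), with no overlap of the groups and a call that held under every alternative run. Ccnd1, which encodes cyclin D1, had 138 and 147 against 107 and 128.8 CPM (log2 fold change -0.27, SE 0.17, adjusted p = 0.378). The median of the G1 list was 0.03, and 6.25% of its tested members were called lower. In footprints 2 of 17 were called higher and 3 lower.

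Genes that build and run the mitotic spindle were higher in the knockout. All 40 listed genes were tested, 34 were called higher (85%) and 0 lower, and in all 40 both knockout libraries lay above both controls. Over all genes tested, 3.94% were called higher, and 51.7% had no overlap of the groups, counted in either direction. The median log2 fold change of the mitosis list was 1.18, with a range from 0.43 for Kif23 to 1.76 for Cenpa. Cenpa, the histone variant that marks centromeres, had 14.8 and 22.8 CPM in WT-shSCR and 61.9 and 62.1 CPM in Arf-/--shSCR MEFs (log2 fold change 1.76, SE 0.26, adjusted p = 2.25e-04). Cdca8, a subunit of the Aurora B complex, had 23.7 and 19 against 79 and 60.4 CPM (log2 fold change 1.69, SE 0.25, adjusted p = 2.06e-04). The chromosome-bound motor gene Kif4 had 27.1 and 47.6 against 111 and 113 CPM (log2 fold change 1.62, SE 0.24, adjusted p = 2.09e-04). These were the largest changes of the list, and in each the knockout libraries were at least 2-fold above the higher control.

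Other members act at different steps of cell division. Kif11, the motor that pushes the spindle poles apart, went from 32.3 and 28.6 to 95.9 and 77.7 CPM (log2 fold change 1.5, SE 0.22, adjusted p = 2.11e-04), and Ccnb1, which encodes cyclin B1, from 78.6 and 85.6 to 201 and 194 CPM (log2 fold change 1.27, SE 0.17, adjusted p = 7.91e-05). Mki67, the proliferation antigen that coats mitotic chromosomes, had 104 and 124 against 244 and 255 CPM (log2 fold change 1.14, SE 0.16, adjusted p = 1.46e-04), and Top2a, the topoisomerase that untangles sister DNA, had 210.2 and 242 against 589 and 473 CPM (log2 fold change 1.24, SE 0.16, adjusted p = 5.81e-05). The calls of these 4 genes, of Cenpa, of Cdca8 and of Kif4 held under every alternative run. Cdc25c, the phosphatase that activates Cdk1, had 6.67 and 8.88 against 21.5 and 24.5 CPM (log2 fold change 1.59, SE 0.38, adjusted p = 0.0122), and Foxm1, a transcription factor for this gene set, had 32.6 and 40 against 61.9 and 64.2 CPM (log2 fold change 0.81, SE 0.22, adjusted p = 0.0304). Aspm, a spindle pole protein outside the list, had 23 and 31.7 against 82.6 and 84.9 CPM (log2 fold change 1.64, SE 0.23, adjusted p = 1.45e-04). Cdc25c and Foxm1 fell short of the threshold by DESeq2 and without either WT-shSCR replicate. The members not called were Kif23, Ckap2, Aurkb, Ttk, Nusap1 and Spc25. In footprints 39 of 40 were called higher, with a median of 1.09. With WT-shSCR replicate 1 or replicate 2 left out, 21 and 21 of the 40 were called in RNA, with medians of 1.12 and 1.23.

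Lists of chromosome structure, splicing and nuclear transport genes, drawn up after the values were seen, also had members called higher. Of 16 genes for cohesin, condensin and SMC proteins, 9 were called higher and 0 lower, with a median of 0.82. The condensin genes Ncapg (16.7 and 26.6 against 79.4 and 74.8 CPM, log2 fold change 1.88), Smc4 (1.46), Smc2 (1.4) and Ncapd2 (1.16) led, and their calls held under every alternative run. Among 10 tested HMG genes 4 were called higher: Hmgb3 (1.94), Hmgb2 (1.52), Hmgn2 (1.41) and Hmgb1 (1.13), which bend DNA or bind nucleosomes, while Hmga2, an architectural factor of embryonic cells, had a log2 fold change of -0.34 and was not called. Of 20 hnRNP genes, whose products package and splice pre-mRNA, 7 were called higher, led by Hnrnph1 (60.4 and 77.4 against 159.5 and 183 CPM, 1.32). Of 10 SR splicing factor genes 2 were higher, and of 22 importins and exportins 5, among them the nuclear export receptor gene Xpo1 (0.87). Medians were 0.22 for HMG, 0.43 for hnRNP, 0.48 for SR and 0.19 for transport genes. Values were below 0 for 3 of the 10 HMG and 7 of the 22 transport genes. Over all genes, 3.94% were called higher. No member of these lists was called lower by edgeR. Without WT-shSCR replicate 1 or replicate 2 the calls numbered 4 and 5 for the SMC genes, 2 and 4 for HMG, 1 and 1 for hnRNP, 0 and 0 for SR and 0 and 1 for transport genes.

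Short sequence elements were counted in the promoters of the mitosis and replication genes. The E2F letters were shortened after values were seen, and the lists were chosen with earlier results known, so the counts are no independent evidence. RefSeq windows (GRCm38.p6) from 250 bases before to 50 after the start were at hand for 8474 of the 10659 genes tested, 1 window a gene. The CHR element TTTGAA, bound in resting cells by the DREAM complex, stood on either strand in 22 of 28 windows of called mitosis genes, against 11.5% of all windows. CCAAT, the box bound by NF-Y, stood in 22 of 28, against 39% of all windows. For called replication genes the pattern was another: TTTGAA stood in 1 of 13 windows, and the E2F-like letters TTCCCGC or TTGGCGC in 9 of 13, against 13.3% of all windows and 4 of 28 for mitosis genes. These are counts of letters and not of bound sites. Windows around the CHR letters of 3 strongly changed mitosis genes that hold them, and around the E2F letters of 3 replication genes, are shown with the element in capitals, 5′ to 3′ on the strand of the gene; for Kif11, Pole2 and Cdt1 the capitals are the element as read on the other strand.
Cenpa (chr5:30666891-30666918, plus strand): gcgggtgatttTTTGAActgctggcgac
Kif4 (chrX:100626073-100626100, plus strand): tctgggatcaaTTTGAAacttggcggtt
Kif11 (chr19:37376352-37376379, plus strand): cgtctccatttTTCAAAattgaggcgcg
Pole2 (chr12:69228163-69228191, minus strand): cgtcggcggtgGCGCCAAatcgcgaacat
Cdt1 (chr8:122568022-122568050, plus strand): gcgcggaatccGCGGGAActacctttttg
Pola1 (chrX:93632307-93632335, minus strand): cctcgccgaggTTCCCGCttttcgctcag

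DNA replication genes had a smaller median change than mitosis genes. Of 42 tested, 14 were called higher (33.33%) and 0 lower, against 3.94% higher over all genes. The median was 0.57, and 40 had a value above 0. Tk1, the thymidine kinase of S phase, had 62.3 and 59 CPM in WT-shSCR and 139 and 129.7 CPM in Arf-/--shSCR MEFs (log2 fold change 1.14, SE 0.19, adjusted p = 5.23e-04). Mcm5, a subunit of the replicative helicase, had 192 and 139 against 310.4 and 343 CPM (log2 fold change 0.97, SE 0.17, adjusted p = 9.45e-04), and Rrm1, the large subunit of ribonucleotide reductase, had 346 and 359.7 against 691 and 538 CPM (log2 fold change 0.8, SE 0.16, adjusted p = 0.00253). In all 3 the groups did not overlap. Pole2, a polymerase epsilon subunit, went from 10 and 14.6 to 30.4 and 29.2 CPM (log2 fold change 1.31, SE 0.33, adjusted p = 0.0185), Cdt1, which loads the helicase, from 26 and 20.9 to 41.1 and 57 CPM (log2 fold change 1.04, SE 0.26, adjusted p = 0.0182), and Pola1, the primase-associated polymerase, from 44.9 and 27.3 to 59.7 and 86.2 CPM (log2 fold change 0.98, SE 0.25, adjusted p = 0.0221). Pcna, the sliding clamp and also a p53 target, had 189 and 179 against 238 and 211 CPM and was not called (log2 fold change 0.29, SE 0.15, adjusted p = 0.287). Footprints of 25 of the 42 were called higher, with a median of 0.64. Single calls in this list were fragile: 8 were made by DESeq2, 2 without WT-shSCR replicate 1 and 1 without WT-shSCR replicate 2, with Tk1 past the threshold in each of these fits, while the median stayed between 0.47 and 0.57.

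Replication-dependent histone genes, whose mRNAs are made in S phase, were called higher in all but 4 tested members. Of 67 listed genes 52 were tested and 48 were called higher (92.31%), with 0 lower and a median of 1.37. Over all genes, 3.94% were called higher. Their summed level was 4837 and 4048 CPM in the WT-shSCR libraries and 9556 and 13994 CPM in the Arf-/--shSCR libraries. Both knockout sums lay above both controls, and Arf-/--shSCR replicate 2 was the higher. The linker histone gene Hist1h1a had 234 and 216 against 571 and 849.9 CPM (log2 fold change 1.66, SE 0.18, adjusted p = 7.34e-06). Hist1h3a, a core histone H3 gene, had 49.7 and 46.3 against 119.8 and 169 CPM (log2 fold change 1.58, SE 0.21, adjusted p = 7.54e-05), and the H4 gene Hist1h4k had 66.7 and 44.4 against 128 and 216 CPM (log2 fold change 1.6, SE 0.24, adjusted p = 2.38e-04). The largest fold was that of the H3 gene Hist1h3d, with 16.7 and 11.4 against 42.9 and 71 CPM (log2 fold change 1.97, SE 0.3, adjusted p = 3.13e-04), and Hist1h2ae, Hist1h2ah and Hist1h2ai of the H2A family had log2 fold changes of 1.86, 1.83 and 1.69. Histone genes are near-identical copies of each other and alignments that were not unique were left out of the counts, so the share of reads given to a single copy is uncertain. In footprints 40 of 51 were called higher. Without WT-shSCR replicate 2, 29 of 53 were called in RNA, with a median of 1.32.

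Nucleolar genes for ribosome assembly were modestly higher. Of 28 tested, 8 were called higher (28.57%, against 3.94% over all genes) and 0 lower, with a median of 0.43. Nop58, a core protein of the box C/D snoRNPs that guide methylation of rRNA, had 78.2 and 79.3 against 201 and 169 CPM (log2 fold change 1.23, SE 0.18, adjusted p = 1.53e-04). Ncl, which encodes nucleolin, had 229 and 239.8 against 393 and 483 CPM (log2 fold change 0.9, SE 0.15, adjusted p = 8.40e-04), and Npm1, which encodes the ARF partner nucleophosmin, had 405 and 396 against 622 and 703 CPM (log2 fold change 0.73, SE 0.15, adjusted p = 0.00345). The knockout libraries lay above the controls in all 3. Dkc1, the pseudouridine synthase of rRNA, had a log2 fold change of 0.86, Gnl3, which encodes nucleostemin, of 0.78, Polr1b, the second-largest subunit of RNA polymerase I, of 0.65, Nop56 of 0.59 and Fbl, the rRNA methyltransferase fibrillarin, of 0.56. In footprints 20 of the 28 were called higher. The RNA count was 4 by DESeq2, 1 without WT-shSCR replicate 1, 2 without WT-shSCR replicate 2 and 4 without Arf-/--shSCR replicate 1, with Nop58 past the threshold in each, and the medians of the leave-one-out fits ranged from 0.42 to 0.48.

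**Figure D2:**
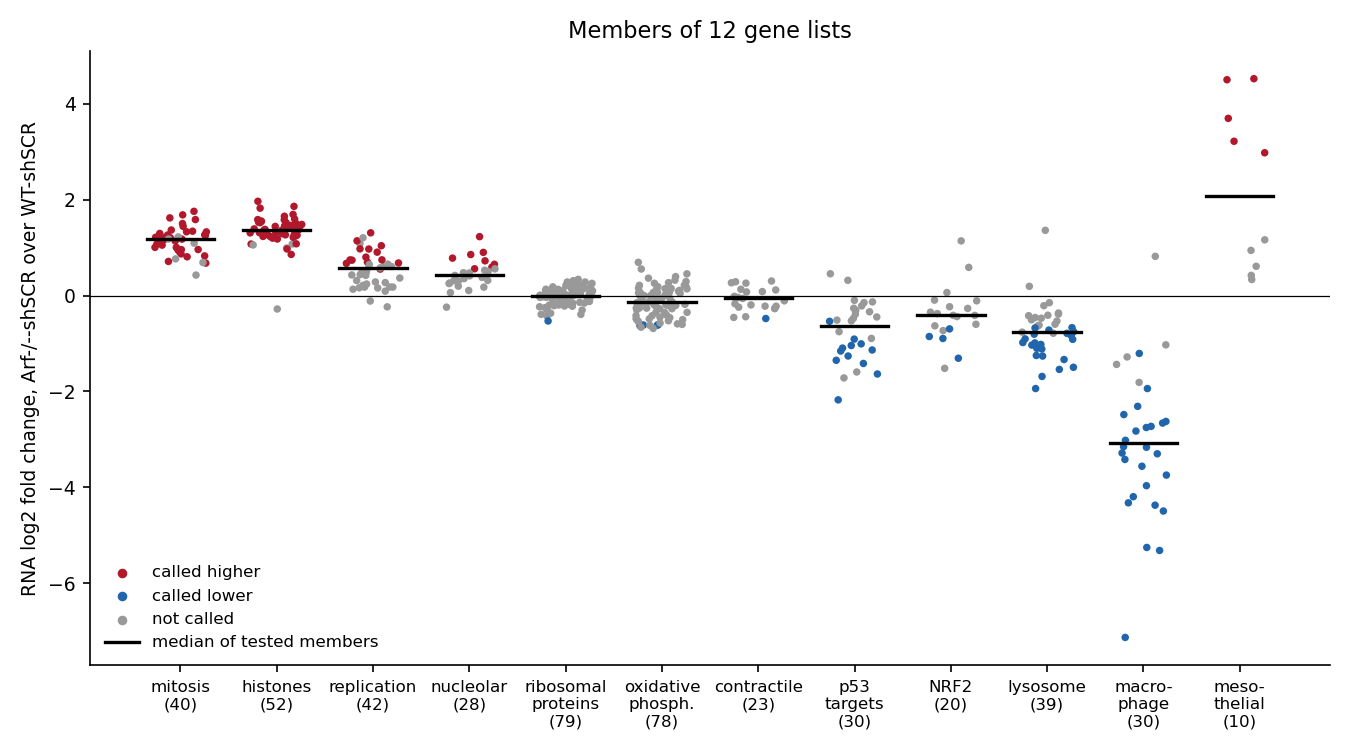
RNA log2 fold change of every tested member of 12 gene lists, Arf-/--shSCR over WT-shSCR, with 1 point a gene, coloured by its call; black bars are medians and brackets give the number tested. Mitosis and histone genes sit together above 0 (medians 1.18 and 1.37), ribosomal protein and contractile genes around 0, and macrophage genes far below (median -3.09).

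The RNA of the ribosomal proteins themselves did not move with the nucleolar genes. Of 79 tested genes 0 were called higher and 1 lower, with a median of -0.01. The 1 called was Rps27l, a ribosomal protein paralog that p53 induces, with 346 and 314 against 247 and 210.4 CPM (log2 fold change -0.53, SE 0.15, adjusted p = 0.0372), a call lost without either WT-shSCR replicate. The footprints of these genes were higher in 78 of 79, with a median of 0.51. Mitochondrial respiratory chain genes had 4 lower of 78 (Cox8a, Cox6a1, Atp5l and Atp5j2, log2 fold changes of -0.61 to -0.63) but 0 by DESeq2 and 0 without either control. Glycolysis genes had 1 higher of 16, the lactate exporter Slc16a3 (0.84). Sterol synthesis had 1 higher of 24, Idi1 (1.35), with a median of 0.35. Among 22 amino acid stress genes the transcription factor Atf4 (0.58) and the leucine transporter gene Slc7a5 (0.62) were called higher, and Sesn2 of the p53 list lower, all 3 lost by DESeq2 and without either control. Proteasome genes had 1 lower of 36, Psmd8 (-0.56). The calls of Slc16a3, Idi1 and Psmd8 were also lost without either control. Endoplasmic reticulum chaperones had 0 called of 18 by edgeR and by DESeq2, with an unadjusted p under 0.05 for 2, both lower. Over all genes, 3.94% were called higher and 3.99% lower.

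Iron storage and antioxidant genes included 4 that were called lower of 20 tested (20%), against 3.99% lower over all genes. Fth1, the ferritin heavy chain, had 269 and 262 CPM in WT-shSCR and 112 and 102 CPM in Arf-/--shSCR MEFs (log2 fold change -1.31, SE 0.16, adjusted p = 2.79e-05), and Ftl1, the light chain, had 3205 and 2815 against 1806 and 1914 CPM (log2 fold change -0.69, SE 0.14, adjusted p = 0.00395). Sqstm1, the autophagy adaptor p62, had 526 and 511 against 282 and 292 CPM (log2 fold change -0.85, SE 0.14, adjusted p = 7.76e-04), and the heme oxygenase gene Hmox1 had 93.4 and 107 against 36.8 and 71.4 CPM (log2 fold change -0.89, SE 0.25, adjusted p = 0.0314). The groups did not overlap in any of the 4. The calls of Fth1 and Sqstm1 held under every alternative run, that of Ftl1 was lost without WT-shSCR replicate 1, and that of Hmox1 was lost without either control or Arf-/--shSCR replicate 1. Footprints of Sqstm1 and Hmox1 were also called lower (-0.8 and -1.13), whereas those of the ferritins were not (0.13 and -0.15); both ferritin mRNAs carry iron-responsive elements. Other NRF2 targets were not called, and the list had a median of -0.41. Macrophage markers, which fell in the same libraries, are given with the lysosomal genes, and their part in these 4 changes was not tested.

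Lysosomal genes were lower across enzymes, membrane proteins and the proton pump. Of 39 tested genes 22 were called lower (56.41%) and 0 higher, against 3.99% lower over all genes. The median was -0.76 and 37 had a value below 0. Ctsd, the aspartic protease cathepsin D, had 1248 and 1144 CPM in the WT-shSCR libraries and 372 and 371 CPM in the Arf-/--shSCR libraries (log2 fold change -1.69, SE 0.15, adjusted p = 6.42e-07). Ctsb, which encodes cathepsin B, had 393 and 409 against 165 and 119 CPM (log2 fold change -1.5, SE 0.17, adjusted p = 1.29e-05), and Grn, which encodes progranulin, had 192 and 207 against 90.5 and 95.9 CPM (log2 fold change -1.1, SE 0.17, adjusted p = 2.43e-04). Psap, the precursor of the saposins, went from 597 and 690.2 to 343 and 345 CPM (log2 fold change -0.9, SE 0.15, adjusted p = 5.47e-04). In each of these both knockout libraries lay below both controls, and the calls held under every alternative run. The acid lipase gene Lipa had a log2 fold change of -1.54, Ctsl, which encodes cathepsin L, of -0.99, the membrane protein gene Lamp1 of -0.67 and the proton pump subunit gene Atp6v0d1 of -0.81. Of the 2 members with a value above 0 neither was called, and the larger was that of Ctsk, the collagen-degrading cathepsin of osteoclasts, with 5.19 and 5.08 against 14.3 and 12.3 CPM (log2 fold change 1.36, SE 0.46, adjusted p = 0.0789). The summed level of the list was 6558 and 6588 CPM in WT-shSCR and 3601 and 3465 CPM in Arf-/--shSCR MEFs. For the MEFs labelled WT-shARF, which share the WT strain label, it was 4256 and 4294 CPM, though in these libraries Cdkn2a itself went against the label, with 648 and 672 CPM. In footprints 31 of 39 were called lower, with a median of -0.78. Without WT-shSCR replicate 1 or replicate 2, 6 and 11 were called in RNA, with medians of -0.77 and -0.73.

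The CLEAR letters TCACGTG, the core of the site bound by TFEB in lysosomal promoters, stood in 5 of 17 windows of the called lysosomal genes, against 6.4% of all windows. This motif was added after values were seen. The 3 most changed genes with the letters at least 11 bases inside the window were Glb1, a beta-galactosidase, the pump gene Atp6v0d1 and the glucosidase gene Gaa. They are shown with the letters in capitals.
Glb1 (chr9:114401018-114401046, plus strand): ctgcttctgagTCACGTGgcctacagagg
Atp6v0d1 (chr8:105566051-105566079, minus strand): ccctactgcggTCACGTGagacgcggtgc
Gaa (chr11:119267811-119267839, plus strand): tttctgtgcgaTCACGTGtttgactctga

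Genes of macrophages had the largest falls. Of 37 listed genes 30 were tested and 25 were called lower (83.33%, against 3.99% over all genes), with 0 higher. The median was -3.09, also with Tlr8 at the bound that its count of 0 allows. A value above 0 was found for 1 tested member (0.82), which was not called, and the macrophage marker Cd68 was not called either. The summed level of the list was 1017 and 973.2 CPM in WT-shSCR and 112.3 and 174.5 CPM in Arf-/--shSCR MEFs, with 522 and 419.4 CPM for MEFs labelled WT-shARF. Both knockout sums were below those of every other RNAseq library, and 3 of the 37 genes had no count in either knockout library. Csf1r, the growth factor receptor that macrophages depend on, had 100.1 and 103 against 7.87 and 9.29 CPM (log2 fold change -3.56, SE 0.25, adjusted p = 4.21e-08). Lyz2, which encodes lysozyme, had 213 and 242 against 10.7 and 18.6 CPM (log2 fold change -3.97, SE 0.23, adjusted p = 3.31e-09), and Adgre1, which encodes the F4/80 antigen, had 44.5 and 43.1 against 4.65 and 4.22 CPM (log2 fold change -3.29, SE 0.35, adjusted p = 7.34e-06). The calls of these 3 held under every alternative run. C1qb, a complement chain, went from 76.4 and 71.7 to 1.07 and 6.34 CPM (log2 fold change -4.37, SE 0.4, adjusted p = 1.10e-06).

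Several members were at or near 0 in the knockout. Tlr8, an endosomal RNA sensor, had 14 and 16 counts in the controls and 0 and 0 in the knockout libraries, a level at least 12.1-fold lower when 3 counts over the group are taken as the floor. Tyrobp, the adaptor of activating myeloid receptors, had 54 and 23 counts against 1 and 1, a WT-shSCR to Arf-/--shSCR ratio of 46.5 (95% exact counting interval 12.4 to 391). The Fc receptor gene Fcgr1 had 29 and 12 counts against 1 and 0, a ratio of 49.5 (8.41 to 2004), and Spi1, the transcription factor PU.1, had 30 and 19 against 2 and 1, a ratio of 19.7 (6.37 to 99). Such intervals and floors cover counting error only. Other defining genes were low but not at 0: Ptprc, the pan-leukocyte antigen CD45, had 8.16 and 10.2 against 1.79 and 3.38 CPM (log2 fold change -1.81, SE 0.6, adjusted p = 0.0743) and was not called, and Mrc1, the mannose receptor, had 12.6 and 15.2 against 1.79 and 3.8 CPM (log2 fold change -2.31, SE 0.54, adjusted p = 0.0111), a call lost by DESeq2 and without either control. In footprints 30 of 32 tested members were called lower, with a median of -3.62. Without WT-shSCR replicate 1 or replicate 2, 10 of 28 and 15 of 31 were called in RNA, and the medians were -2.93 and -3.05.

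Some genes outside the list but known from macrophages were lower too. They were named because they were called or after their values were seen, so their falls are no separate evidence. Apoe, the lipid carrier, had 306 and 269 against 20.4 and 24.9 CPM (log2 fold change -3.67, SE 0.19, adjusted p = 8.84e-10), and Stab1, a scavenger receptor, had 139 and 121 against 9.3 and 11.8 CPM (log2 fold change -3.63, SE 0.24, adjusted p = 2.08e-08). The anaphylatoxin receptor genes C5ar1 (-4.8) and C3ar1 (-4.52) were also called lower, as was the fatty acid transporter gene Cd36 (-2.77). Ctss, cathepsin S, is in both the lysosomal and the macrophage list and had 39.3 and 27.9 against 6.08 and 11.8 CPM (log2 fold change -1.94, SE 0.37, adjusted p = 0.00203). What part macrophage RNA had in the lower level of the lysosomal genes, ferritins or Apoe was not tested. The summed macrophage level fell more than the summed lysosomal level, and in MEFs labelled WT-shARF both sums lay between those of the other groups.

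In promoters, AGGAAGT, a form of the site bound by PU.1, stood in 8 of 17 windows of called macrophage genes, against 8.24% of all windows. The list was chosen with earlier results known, so these counts of letters, not of bound sites, are no independent evidence. The windows of Fcgr1, C1qb and Cd53, a leukocyte tetraspanin, show the letters on the other strand, ACTTCCT, in capitals.
Fcgr1 (chr3:96294013-96294041, minus strand): cagaaatggcaACTTCCTtcctcttttct
C1qb (chr4:136886236-136886264, minus strand): caggacctgaaACTTCCTgagggcagcag
Cd53 (chr3:106790126-106790154, minus strand): cactcagtctcACTTCCTcactcttctcg

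**Figure D3:**
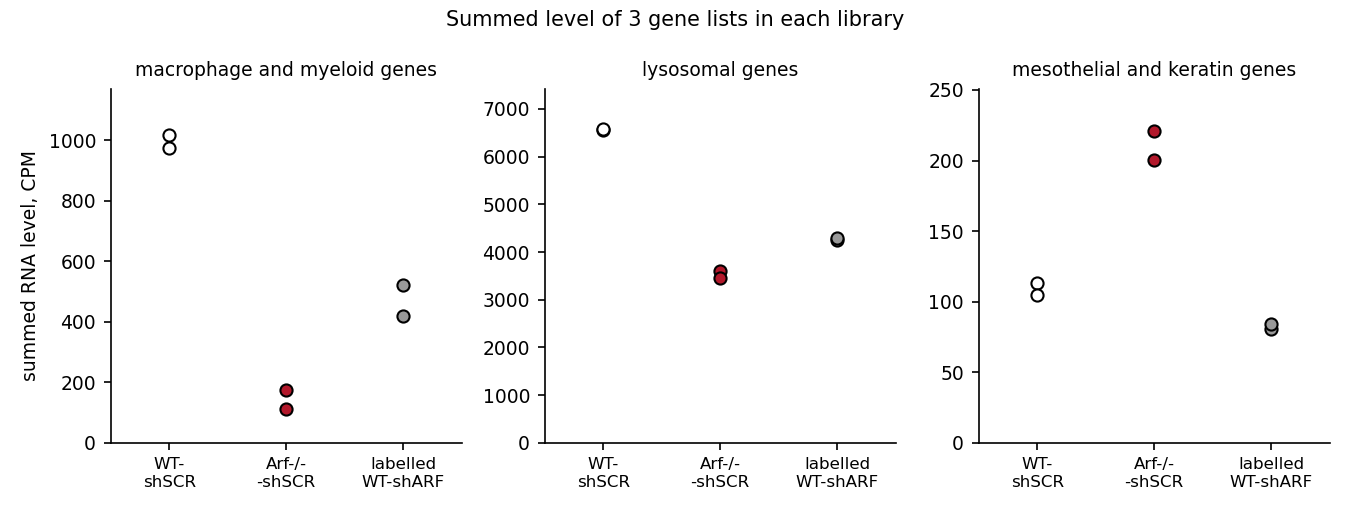
Summed RNA level in CPM of the macrophage, lysosomal and mesothelial lists in each of the 6 RNAseq libraries, 1 point a library and 2 a group; WT-shARF was scaled with all 6 libraries and the other groups with their own 4. Macrophage genes sum to 1017 and 973.2 CPM in WT-shSCR and 112.3 and 174.5 CPM in Arf-/--shSCR libraries, and mesothelial genes are highest in Arf-/--shSCR.

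Mesothelial genes went in the other direction at low levels. Of 14 listed genes in the files 10 were tested, 5 were called higher (50%) and 0 lower, and the median was 2.07. Over all genes, 3.94% were called higher. Krt8, a simple epithelial keratin, had 3 and 0 counts in the WT-shSCR libraries and 46 and 42 in the Arf-/--shSCR libraries, a ratio of 24.3 (95% exact counting interval 8.04 to 120). Upk3b, a uroplakin of mesothelium, had 1.48 and 0.634 against 16.5 and 14.8 CPM (log2 fold change 3.7, SE 0.6, adjusted p = 5.51e-04), and Msln, which encodes mesothelin, had 1 and 1 counts against 14 and 11, a ratio of 10.4 (2.58 to 90.1). Lrrn4 had 0 and 1 counts against 20 and 14, a ratio of 28.1 (4.72 to 1144), and Upk1b, another uroplakin gene, was the fifth member called (2.98). The knockout libraries lay above the controls in all 5, but Krt19 with 74.5 and 72.3 against 89.4 and 96.3 CPM and the mesothelial factor Wt1 with 4.82 and 2.54 against 6.08 and 4.22 CPM were not called. The sum of the list was 113.1 and 104.7 CPM in WT-shSCR and 200.6 and 220.9 CPM in Arf-/--shSCR MEFs, and 80.9 and 84.1 CPM for MEFs labelled WT-shARF. Gata4, a factor of heart and gonad lineages, also rose (1.11 and 0.634 against 6.08 and 6.76 CPM, log2 fold change 2.72, SE 0.77, adjusted p = 0.0355), a call lost when any 1 of the 4 libraries was left out. In footprints 11 of 12 tested members were called higher. The calls of Krt8 and Upk3b held under every alternative in which they were tested, but the RNA count was 3 by DESeq2, 3 without WT-shSCR replicate 1, 2 without WT-shSCR replicate 2 and 0 of 2 tested where at least 10 counts were required in every library. The median was 1.33 without WT-shSCR replicate 2, 1.35 without Arf-/--shSCR replicate 1 and 1.36 without Arf-/--shSCR replicate 2.

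Markers of other cell types were mostly too low to be tested. Among the few tested, the share called lower was in several lists above the 3.99% of all genes. The share called higher over all genes was 3.94%. Of endothelial genes 0 of 6 tested were called by edgeR and by DESeq2 (unadjusted p under 0.05 for 1), of skeletal muscle genes 1 of 4 was lower (Acta1, -1.25), of neural genes 2 of 6 were lower (Nes, -1.06, and Ncam1, -0.58), and of cartilage and bone genes 2 of 9 were lower (Spp1, -1.2, and Col2a1, -0.85). Of adipocyte genes 1 of 3 was lower, Cd36. The calls of Acta1, Nes and Spp1 held under every alternative run, while those of Ncam1, Col2a1 and Cd36 were lost without either control. All 17 erythroid, mast and lymphoid genes were too low to be tested. Of other epithelial genes 1 of 4 was lower, the desmosomal cadherin gene Dsg2 (808 and 659 against 319.7 and 419 CPM, -0.99), a call lost without WT-shSCR replicate 1, and its footprints were too few to be tested. Fibroblast identity genes moved both ways, with 3 of 14 higher and 1 lower: Pdgfra, the PDGF receptor alpha, went from 3.71 and 2.54 to 23.6 and 10.1 CPM (log2 fold change 2.38, SE 0.53, adjusted p = 0.00795), Prrx1, a limb mesenchyme factor, from 23.4 and 28.6 to 53.3 and 47.3 CPM (log2 fold change 0.97, SE 0.25, adjusted p = 0.0188), and Col3a1 and Fn1 are given with the matrix. Pdgfra had a log2 fold change of 1.64 without Arf-/--shSCR replicate 1 and was not called without it or without either control, as was the case for Prrx1.

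Collagen chains moved in both directions. Among 33 tested 5 were called higher (15.15%) and 4 lower (12.12%), against 3.94% and 3.99% over all genes. The median was -0.20, or 0.07 without WT-shSCR replicate 1. Col6a3, the long chain of the microfibrillar collagen VI, had 235 and 266 CPM in WT-shSCR and 751 and 689 CPM in Arf-/--shSCR MEFs (log2 fold change 1.53, SE 0.15, adjusted p = 3.00e-06), and its partner chains Col6a1 (0.7) and Col6a2 (0.82) were higher too. Col3a1, a fibrillar chain of soft tissue, had 658 and 679 against 1371 and 1121 CPM (log2 fold change 0.9, SE 0.15, adjusted p = 6.77e-04), and the short chain gene Col8a2 had 1.85 and 2.54 against 18.6 and 14.4 CPM (log2 fold change 2.93, SE 0.53, adjusted p = 0.00131). On the other side the basement membrane chains Col4a1 and Col4a2 were lower, with 2232 and 2108 against 1346 and 1244 CPM (log2 fold change -0.74, SE 0.14, adjusted p = 0.0021) and 1372 and 1401 against 807 and 779 CPM (log2 fold change -0.81, SE 0.14, adjusted p = 0.00106), as were Col5a1 (-0.62) and Col2a1 (-0.85). The groups did not overlap in any of the 9, as in nearly all called genes. Of 13 laminin, perlecan and nidogen genes, Lamb1 (-0.59) and Agrn (-0.79) were called lower, which is 15.38% of the list. Without WT-shSCR replicate 1 the collagens called higher were 2, and without WT-shSCR replicate 2 they were 3, with Col6a3 and Col3a1 past the threshold in both. The collagens called lower were then 1 and 2, with Col4a2 past the threshold in both, and neither Lamb1 nor Agrn was called in these fits.

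Matrix glycoproteins and remodelling enzymes were more often called lower than higher. Of 34 glycoproteins and proteoglycans 9 were called lower (26.47%) and 3 higher (8.82%), with a median of -0.17. Over all genes, 3.99% were called lower and 3.94% higher. Fn1, which encodes fibronectin, had 7060 and 9912 against 3098 and 2936 CPM (log2 fold change -1.49, SE 0.16, adjusted p = 7.34e-06), and Igfbp7, a secreted binder of insulin-like growth factors, had 435 and 492 against 206 and 192 CPM (log2 fold change -1.22, SE 0.15, adjusted p = 3.94e-05). Bgn (-0.87), Sparc (-0.7), Thbs1 (-0.57), Tnc (-0.52) and Tnxb (-1.93) were lower as well. Fbln1, an elastic fibre protein, went the other way, from 11.5 and 15.9 to 54.4 and 64.2 CPM (log2 fold change 2.15, SE 0.27, adjusted p = 5.72e-05), with the fibrillin gene Fbn2 (0.73) and the TGF-beta binder gene Ltbp4 (1.03).

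Of 29 proteases, inhibitors and lysyl oxidases 8 were lower (27.59%) and 1 was higher (3.45%), against 3.99% and 3.94% over all genes. Serpine2, the thrombin inhibitor protease nexin, had 116 and 136 against 14.7 and 14.8 CPM (log2 fold change -3.09, SE 0.23, adjusted p = 6.14e-08). The collagen crosslinker gene Loxl2 had 882 and 959 against 425 and 381 CPM (log2 fold change -1.19, SE 0.15, adjusted p = 3.95e-05), and the gelatinase gene Mmp2 had 448 and 446 against 230.3 and 265 CPM (log2 fold change -0.85, SE 0.15, adjusted p = 9.91e-04). The calls of these 3, of Fn1, of Igfbp7 and of Fbln1 held under every alternative run. Bmp1, the procollagen C-proteinase, was lower (-1.03), as was the metalloproteinase inhibitor gene Timp1 (-0.62), and stromelysin, encoded by Mmp3, was higher (7.42 and 7.61 against 21.1 and 17.3 CPM, 1.35). The lower calls among the enzymes numbered 5 by DESeq2. They numbered 5 and 3 among the glycoproteins, and 4 and 4 among the enzymes, without WT-shSCR replicate 1 and replicate 2. The higher calls of Fbn2, Ltbp4 and Mmp3 were lost by DESeq2 and without either control. Contractile genes such as Acta2, smooth muscle actin, did not follow (10366 and 10630 against 10254 and 10327 CPM, log2 fold change -0.03, SE 0.13, adjusted p = 0.932), and 1 of 23, Tpm1 (-0.48), was called lower, a call lost with RLE in place of TMM scaling, with the replicate number as a block, with at least 10 counts in every library, and without either control or Arf-/--shSCR replicate 2.

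In the IGF system 4 of 16 tested genes were lower, Igfbp7 among them, and 1 was higher. Pappa, a protease that frees IGFs from their binding proteins, had 134 and 164 against 61.5 and 52 CPM (log2 fold change -1.38, SE 0.19, adjusted p = 1.33e-04), and Igfbp2 had 214 and 195 against 70.5 and 90.4 CPM (log2 fold change -1.35, SE 0.18, adjusted p = 7.16e-05). Igfbp6, the binder that prefers IGF2, rose from 19.3 and 14.6 to 48.6 and 55.8 CPM (log2 fold change 1.59, SE 0.27, adjusted p = 6.95e-04), and the growth factor gene Igf2 itself fell by 0.64 on the log2 scale, a call lost when any 1 of the 4 libraries was left out. In the TGF-beta list 1 of 29 was higher, the bone morphogenetic ligand gene Gdf6, with 2 and 1 counts against 24 and 20 (ratio 12.1, 95% exact counting interval 3.89 to 61.1), and 1 was lower, the receptor gene Tgfbr2 (71.9 and 78 against 30 and 36.8 CPM, -1.17). The call of Gdf6 was lost by DESeq2 and without either control, and that of Tgfbr2 without WT-shSCR replicate 2. In the PDGF, FGF and VEGF list the HGF receptor gene Met was higher (1.1), and Pdgfb (-2.34) and Nrp1 (-0.66) were among the genes called lower, of 19 tested, and none of these 3 calls held without either control. The Hedgehog co-receptor gene Gas1 rose from 2.6 and 1.27 to 12.9 and 12.7 CPM (log2 fold change 2.6, SE 0.57, adjusted p = 0.00709), a call lost by DESeq2 and without either control. Of the MAPK feedback genes 1 of 29 was lower, the phosphatase gene Dusp1 (-0.67), a call lost by DESeq2, with the replicate number as a block and when any 1 of the 4 libraries was left out. Wnt genes had 0 called of 15 by edgeR and by DESeq2, with an unadjusted p under 0.05 for 2. The PDGF, FGF and VEGF list had 2 higher and 3 lower of 19. Over all genes, 3.94% were called higher and 3.99% lower. The shares of the TGF-beta list (3.45% higher, 3.45% lower) and of the MAPK list (3.45% lower) lay below these.

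Genes of immune signalling differed by list. In RNA 9.09% of the MHC list were called lower, and 13.33% of the chemokine list were lower and 6.67% higher. Over all genes, 3.94% were called higher and 3.99% lower. Footprints were called lower for 1 of 17 interferon, 5 of 12 MHC and 8 of 18 chemokine genes, and higher for 3 chemokine genes. Over all genes tested in footprints, 8.95% were called lower and 9.57% higher. Type I interferon response genes had 0 called of 17 by edgeR and by DESeq2 and 0 with an unadjusted p under 0.05, with a median of -0.11. Of 11 MHC class I and antigen loading genes B2m was lower (159 and 167 against 97.6 and 109.8 CPM, log2 fold change -0.65, SE 0.17, adjusted p = 0.0215), a call lost by DESeq2 and without either control, and all 11 had values below 0. Of 15 chemokines and cytokines Ccl9 (-2.62) and the NF-kappaB inhibitor gene Tnfaip3 (-1.03) were lower, and both calls were lost by DESeq2, without either control and without Arf-/--shSCR replicate 2. Il1rl1, the receptor of interleukin 33, was higher with 69.3 and 52 against 214 and 83.2 CPM (log2 fold change 1.28, SE 0.3, adjusted p = 0.0105), a change that rested on Arf-/--shSCR replicate 1, since without it the log2 fold change was 0.44 and was not called.

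Genes that record where in the body a fibroblast came from were tested in small numbers. Over all genes, 3.94% were called higher and 3.99% lower, so 0 calls among 14 Hox genes cannot show a lack of change. Other patterning factors had 6.67% called higher, and imprinted genes 6.25% higher and 18.75% lower. Hox genes had 0 called of 14 by edgeR and by DESeq2, with an unadjusted p under 0.05 for 2 and a median of -0.03, and among 30 other patterning factors 2 were called higher, Gata4 and the limb and skin factor Tbx15 (14.5 and 21.6 against 46.1 and 34.2 CPM, log2 fold change 1.2, SE 0.3, adjusted p = 0.0161), whose call was lost by DESeq2 and without either control. Of 16 imprinted genes Mest was higher (11.5 and 7.61 against 32.9 and 35.5 CPM, log2 fold change 1.79, SE 0.33, adjusted p = 0.00183), and Gnas (-0.58), Impact (-1.04) and Igf2 were lower. The call of Mest held under every alternative run, while the 3 lower calls were all lost without either control, and 1 was left by DESeq2. The Y-linked genes Ddx3y, Uty, Kdm5d and Eif2s3y were read in all 4 libraries and 0 were called by edgeR or by DESeq2, with 0 unadjusted p-values under 0.05 and a summed list level of 185.8 and 156.7 CPM against 153.4 and 180.4 CPM. Nnt, which carries a deletion in C57BL/6J but not in most other strains, had 69.3 and 62.2 against 65.8 and 50.7 CPM (log2 fold change -0.18, SE 0.21, adjusted p = 0.686) and was not called.

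By position, chromosome 13 had the highest share of calls. It holds most of the Hist1 genes and had 55 higher and 11 lower of 406 tested (16.3% called), while the other chromosomes ranged from 4.62% to 10%. Around Cdkn2a, within 5 Mb on chromosome 4, 3 of 16 tested genes were called, and over 20 Mb away 7.77% of 579 were. The 3 were Haus6, a spindle augmin subunit (21.5 and 22.8 against 46.1 and 35.9 CPM, 0.9), the lipid droplet gene Plin2 (294 and 258 against 137 and 139 CPM, -1.01) and the ion exchanger gene Slc24a2 (175 and 74.9 against 61.5 and 61.3 CPM, -1.05). The call of Plin2 held under every alternative run. That of Slc24a2 was lost by DESeq2 and without WT-shSCR replicate 1, where its log2 fold change was -0.29, and that of Haus6 by DESeq2, without either control and without Arf-/--shSCR replicate 1.

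**Figure D4:**
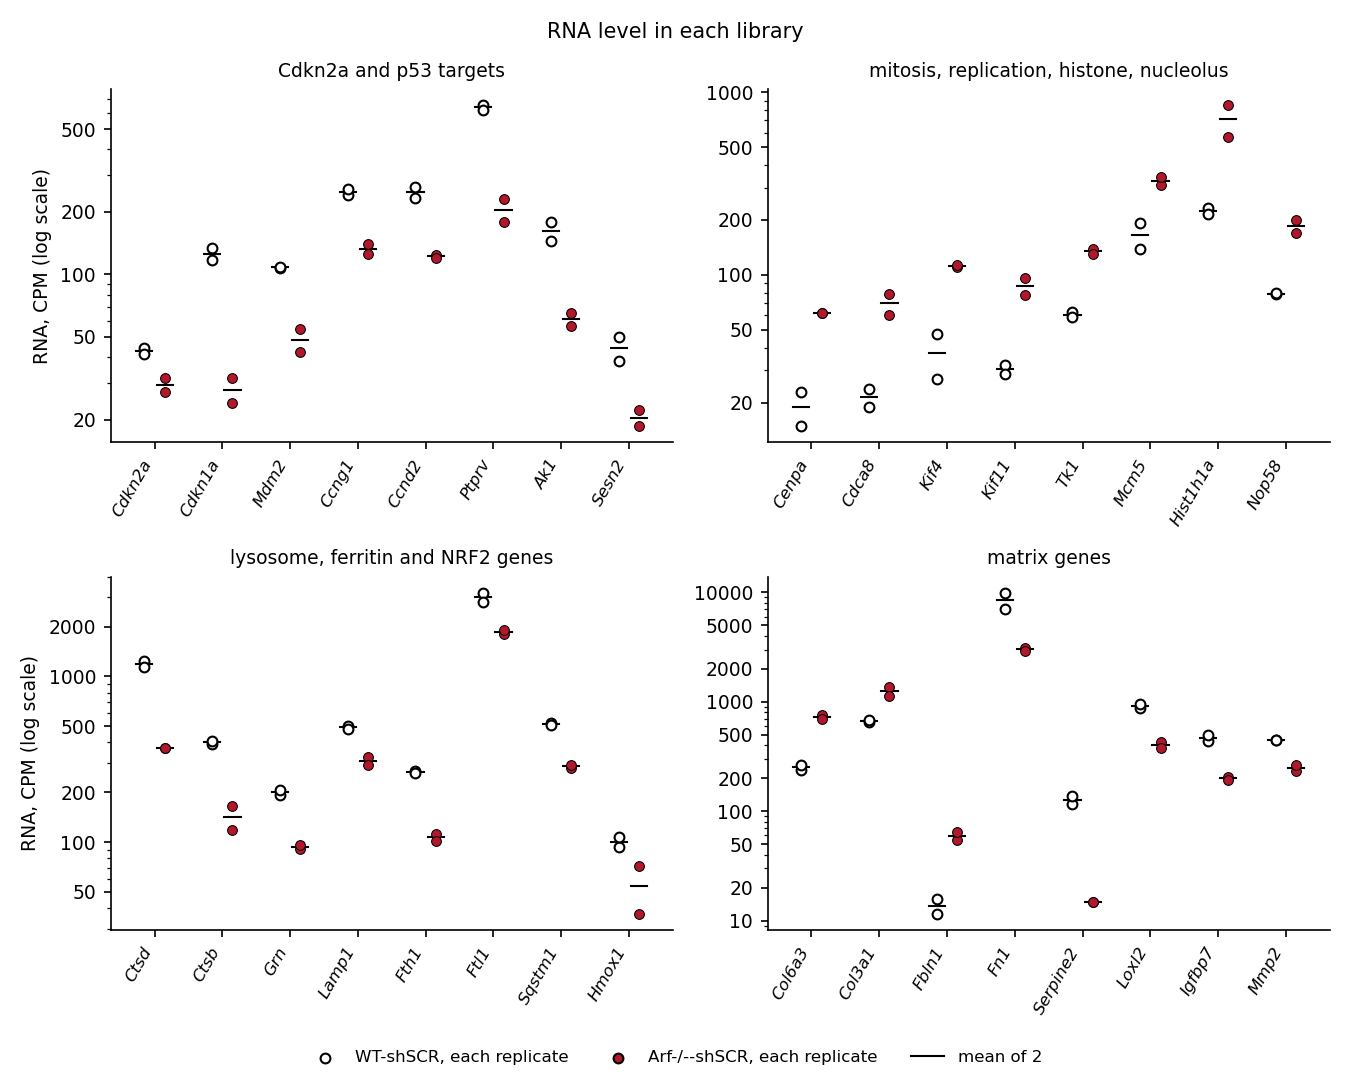
RNA level in CPM on a log scale of 32 named genes in 4 panels, with 1 point for each library (open, WT-shSCR; red, Arf-/--shSCR) and a bar at the mean of 2. In every gene shown, both knockout libraries lie on the same side of both controls, as for Cdkn1a at 118 and 134 against 24.0 and 31.7 CPM.

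Footprints of the same groups gave a second readout from other libraries. Of the genes called higher in RNA 408 were tested in footprints, and 298 (73%) were called higher and 3 lower, against 9.57% higher over all genes tested in footprints. Of those called lower in RNA 404 were tested, and 310 (76.7%) were called lower and 1 higher, against 8.95% lower over all. The footprint calls leaned on the controls even more than the RNA calls, with 0 called in either direction without WT-shSCR replicate 1 or replicate 2.

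A few large RNA changes were not called in footprints. Fut10, a fucosyltransferase gene, had 352 and 369.8 against 30 and 58.7 CPM in RNA (log2 fold change -3.04, SE 0.22, adjusted p = 5.83e-08) and a footprint log2 fold change of -0.75, which was not called. Zdhhc15, a palmitoyltransferase gene, had 312 and 207 against 50.1 and 56.6 CPM (log2 fold change -2.29, SE 0.2, adjusted p = 6.49e-07) and a footprint value of 1.07, also not called. Myo6, which encodes the minus-end myosin, was high in 1 knockout library, with 52.3 and 34.9 against 216 and 53.2 CPM (log2 fold change 1.61, SE 0.4, adjusted p = 0.0156), and its footprint value was -0.36. Without Arf-/--shSCR replicate 1 its RNA log2 fold change was 0.26 and not called. In the same way Ift88, a ciliary transport gene (5.56 and 6.34 against 9.66 and 100.5 CPM), and Sox12 (31.2 and 45.7 against 50.4 and 191 CPM) were carried by Arf-/--shSCR replicate 2, without which their log2 fold changes were 0.71 and 0.43 and neither was called.

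**Figure D5:**
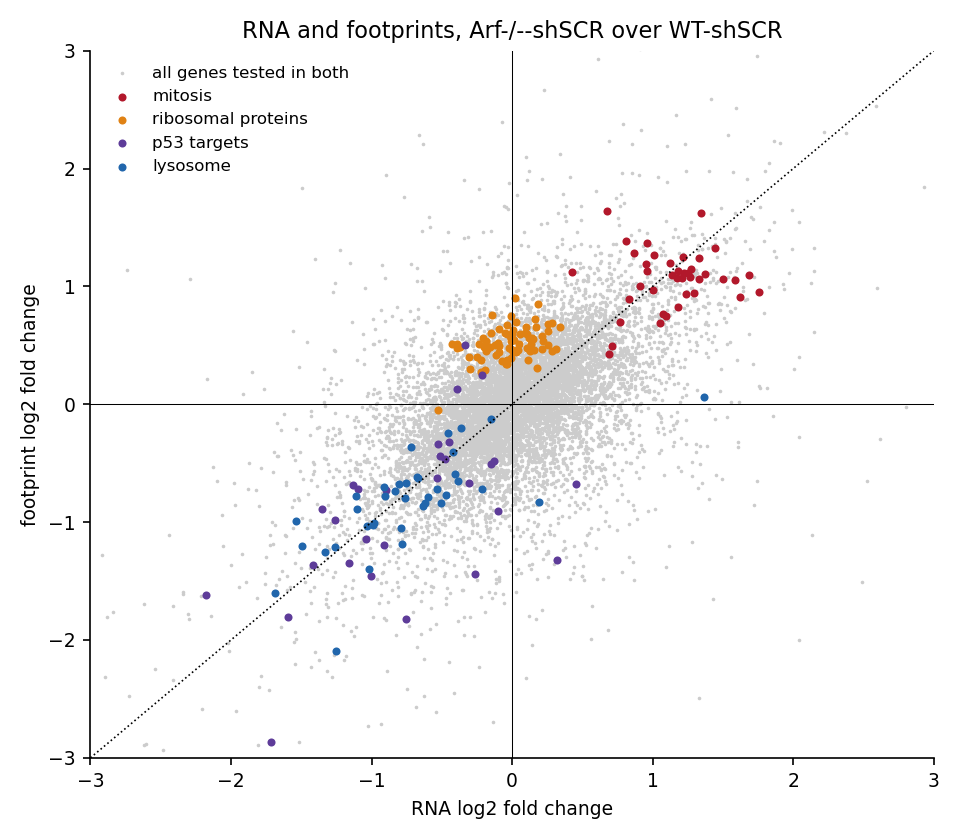
Log2 fold change of RNA (x axis) and of footprints (y axis), Arf-/--shSCR over WT-shSCR, for 10012 genes tested in both, of which 84 lie outside the range shown; the dotted line marks equal changes. Mitosis genes lie high on both axes and p53 and lysosomal genes low on both, while ribosomal protein genes have RNA changes around 0 (median -0.01) and footprint changes around 0.51.

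Some of the largest fold changes came from genes with few counts in 1 group. AW551984 had 1 and 0 counts in WT-shSCR and 25 and 12 in Arf-/--shSCR libraries (ratio 30.6, 95% exact counting interval 5.17 to 1242), and Apln, which encodes the peptide apelin, had 3 and 0 counts against 14 and 19 (ratio 9.1, interval 2.86 to 46.4). Neither call held in every fit with 1 library left out, and that of Apln was also lost at an adjusted p under 0.01. The hair keratin gene Krt33a had 1.11 and 1.9 against 11.4 and 8.03 CPM (log2 fold change 2.74, SE 0.66, adjusted p = 0.0141), a call lost by DESeq2 and without either control. Among the falls, Vnn1, a pantetheinase gene, had 31 and 7 counts against 1 and 0, a WT-shSCR to Arf-/--shSCR ratio of 45.9 (7.76 to 1861). Pf4, a chemokine of platelets and macrophages, had 23 and 9 counts against 1 and 0 (ratio 38.7, interval 6.46 to 1574), and AF251705 had 14 and 9 counts against 0 and 1 (ratio 27.8, interval 4.51 to 1145). The call of Vnn1 was lost by DESeq2, and those of Pf4 and AF251705 did not hold in every fit with 1 library left out. That of AF251705 was also lost at an adjusted p under 0.01.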

How the data were processed

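RNA and ribosome footprint libraries were compared between Arf-/--shSCR and WT-shSCR MEFs, 2 replicates of each, grouped by the labels. The authors fragmented total RNA by alkaline hydrolysis, cut fragments of footprint size, mapped them to the mm10 genome using TopHat, and used HTSeq to tally reads that fall in coding sequence. The counts were deposited raw, 1 value a gene, with no normalization. The strand setting is not given in the sources used here. In the RNA libraries 80.34 to 81.38% of alignments were not unique and were left out by the counting, and 75.81 to 82.92% of unique reads lay outside coding sequence; these summary rows were kept out of library sizes and tests. Totals on genes were 1578627 to 2803035 counts per RNA library and 2544319 to 5157572 per footprint library, with 14110 to 15609 genes read in RNA, so that genes with few counts carry the widest error.

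Counts were tested with edgeR 4.0.16 in R 4.3.3 (filterByExpr, TMM factors, quasi-likelihood F test, Benjamini-Hochberg threshold 0.05) on the libraries of the 2 groups alone. DESeq2 1.42.0 and other filters, factors and left-out replicates were alternatives. The scripts were tested on simulated counts. Equal replicate numbers did not pair samples (correlation of deviations -0.021 over 10659 genes), and replicates differed by more than counting noise, with a chi-square per gene of 4.67 in WT-shSCR and 6.97 in Arf-/--shSCR RNA. Exact counting intervals have a level of 95%. Gene positions were from GENCODE annotation of GRCm38 and promoters from RefSeq.

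The members and gene lists were chosen with earlier results of these data known, so no list is independent evidence. Named genes were the called members of the lists and the largest changes, with a few members that were not called. The SMC, HMG, hnRNP, SR and nuclear transport lists, and genes outside the lists such as Aspm, Apoe, Stab1 and Fut10, were added after values were seen. So were changes to the motif letters: E2F was shortened, CLEAR was added, and interferon and CArG motifs were dropped.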

Additional observations from a re-analysis of the deposited data

How the results depend on the processing

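The 420 higher and 425 lower RNA calls became 208 and 206 by DESeq2 and 191 and 190 at an adjusted p under 0.01. With 1 replicate left out they ranged from 105 to 420 and from 117 to 370, lowest without WT-shSCR replicate 1. The 1027 higher and 961 lower footprint calls became 627 and 523 by DESeq2, and 0 to 633 and 0 to 560 with 1 replicate left out, the 0 without either WT-shSCR replicate, where the lone control is assumed to vary like the other group. The cause was not tested. With the replicate block RNA calls were 417 and 410 and footprint calls 1082 and 993; the numbers did not pair the samples. Without a filter RNA calls were 551 and 506, and with upper quartile factors 416 and 509. Of 128 called genes named by the rule, all 128 kept their direction and 50 stayed past the threshold under every alternative. Reversals were among genes not called: the log2 fold change of Ddx3y ranged from -0.12 to 0.24, that of Kdm5d from -0.23 to 0.091, that of Nnt from -0.38 to 0.00061 and that of Disc1 from -0.40 to 2.70 over the fits with 1 replicate left out. Depth limits genes with few counts: with at least 10 counts in every library, 7 of 9 macrophage genes were lower and 0 of 2 mesothelial genes higher.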
